A study of Mus musculus with 6 samples.

Results

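The 41 genes described here belong to the unfolded protein response and the integrated stress response of the mouse. They were taken by symbol from a list of chaperones, stress sensors, transcription factors and their known targets, and all 41 were found among the 19179 genes in the files. By role, 17 encode folding factors of the endoplasmic reticulum (ER), 4 act in ER-associated degradation, 5 are sensors or factors of the ER branches, 4 are transcription factors of the integrated stress response and 11 are targets of ATF4. The series compared clones of 4T1, a mammary carcinoma line derived from a BALB/c mouse, that had grown from single cells in plate wells for 14 days. The tissue label of 3 libraries is breast cancer stem cell, and these are called stem-labelled here. The other 3 libraries carry the label breast cancer cell. No genotype or treatment separates the groups in the labels, which abbreviate the clones as SC and NSC and do not say how a clone was assigned, and all libraries are from the 1 cell line. The labels speak of 10 clones of each kind and 3 independent experiments, without saying how many clones a library holds. Which libraries share an experiment, or were prepared together, is not stated, so the p-values below measure the spread between these libraries.

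Proteins that enter the ER are folded there by chaperones and by disulfide isomerases, and an excess of unfolded protein is sensed by IRE1, PERK and ATF6. IRE1 splices the mRNA of XBP1, ATF6 is cut to release a transcription factor, and both of these factors raise the genes of ER chaperones and of ER-associated degradation. PERK phosphorylates the initiation factor eIF2, as GCN2 does when amino acids run short, which slows protein synthesis and favours translation of ATF4. ATF4 in turn raises genes of amino acid synthesis and stress adaptation. Since ATF4 is controlled at translation and XBP1 by splicing, the gene-level transcript values used here do not measure the activity of either.

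The deposited values are RPKM, reads per kilobase of gene length scaled to a library total set by the authors. Stem-labelled libraries held 21196572 to 22838870 reads in genes, and the other libraries 15357608 to 16830762. Divided by the total to which the values are scaled, these sums came to 0.658 to 0.757 for stem-labelled and 1.23 to 1.53 for the other libraries, so how the libraries were scaled cannot be told apart from the groups. Epithelial markers of the line were present in every library, with a summed level for Krt8, Krt18, Krt7, Krt14, Epcam and Cdh1 of 924 to 1423 RPKM in stem-labelled and 2042 to 3668 RPKM in other clones. That sum is set by keratins, and the markers moved apart. Cdh1 stood at 68.9 ± 9.002 RPKM in stem-labelled and 16.0 ± 1.98 RPKM in other clones, and Krt14 at 0.162 ± 0.201 RPKM in stem-labelled and 26.2 ± 28.9 RPKM in other clones. The 4 fibroblast markers listed of 6 summed to 1.68 to 3.38 RPKM in stem-labelled and 0.396 to 1.01 RPKM in other clones, nearly all from Pdgfra, which stood at 2.59 ± 0.869 RPKM in stem-labelled and 0.650 ± 0.267 RPKM in other clones, and the part of these differences in the results below was not tested. The 10 markers of the stem cell label summed to 189 to 299.8 RPKM in stem-labelled and 167 to 241 RPKM in other clones, but they differed. In the test given below, Sox9 and Itga6 were called higher, Procr was called lower, and Cd44, Cd24a, Itgb1 and Bmi1 did not pass. Prom1, Aldh1a3 and Aldh1a1 were too low to be tested, with 7, 3 and 80 reads in stem-labelled and 1, 6 and 20 in other clones. Of 7 leukocyte markers 4 were listed, and those other than Cd68 were nearly absent, with 2 reads of Ptprc in stem-labelled and 3 in other clones. Cd68 stood at 29.0 ± 14.7 RPKM in stem-labelled and 16.4 ± 11.9 RPKM in other clones and did not pass. In such bulk RNA a lower level in each cell and fewer cells that hold the transcript cannot be told apart.

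The known control elements near the starts of these genes are given before the levels. The RefSeq promoter table (GRCm38.p6, 250 bases before to 50 bases after each start) held windows for 37 of the 41 genes. It had none for Atf6, Cth, Hyou1 and Manf, and gave 2 windows each for Atf5 and Eif2ak4. For 27 of the 39 windows, sequence after the start was also found in the gene's longest annotated transcript. The windows of Nupr1 and Atf3 lie inside the spans over which these genes are listed, and not at their outer start. A window is therefore not always at the start of the transcript that was measured. The ER stress element, to which ATF6 binds together with NF-Y, reads CCAAT, then 9 bases of any kind, then CCACG. Searched on both strands, it occurred in 8 of the 15 ER folding genes that had a window, in 1 of 4 degradation genes and in 0 of 10 ATF4 targets, against 0.119% of all 32851 windows. Its end CCACG alone was in 32.8% of all windows and in 14 of the 15 ER folding genes. The matches, written 5′ to 3′ on the strand that reads CCAAT first, with the fixed letters in capitals, show how the spacer varied while the ends were fixed by the search.
Hspa5, chr2:34772025-34772043, plus strand: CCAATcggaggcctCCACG
Hsp90b1, chr10:86705638-86705656, minus strand: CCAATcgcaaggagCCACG
Hsp90b1, chr10:86705533-86705551, plus strand: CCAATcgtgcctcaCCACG
Dnajc3, chr14:118937827-118937845, plus strand: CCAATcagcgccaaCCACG
Pdia6, chr12:17266491-17266509, plus strand: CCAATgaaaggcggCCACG
Calr, chr8:84847075-84847093, plus strand: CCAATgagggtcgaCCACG
Canx, chr11:50325800-50325818, minus strand: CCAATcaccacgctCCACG
Creld2, chr15:88819520-88819538, minus strand: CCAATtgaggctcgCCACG
Ero1lb, chr13:12565682-12565700, minus strand: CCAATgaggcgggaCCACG
Syvn1, chr19:6046532-6046550, plus strand: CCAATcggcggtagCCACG

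The C/EBP-ATF element bound by ATF4 and its partners was searched as TGATGNAA on both strands. It occurred in 5 of the 10 ATF4 targets with a window, in 1 of 4 factors of the integrated stress response (Atf3), in 1 of 4 degradation genes (Herpud1) and in 0 of 15 ER folding genes, against 3.97% of all windows. With the open letter fixed, as TGATGCAA, it was in 3 of the 10 targets and in 0.895% of all windows. The XBP1 element TGACGTGG was in none of the 37 members' windows and in 0.676% of all windows, which says only that these letters are not in these windows. The matches are shown with their flanks on the strand that reads TGATG, the element in capitals.
Chac1, chr2:119351023-119351082, minus strand: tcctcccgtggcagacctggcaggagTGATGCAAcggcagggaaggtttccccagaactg
Nupr1, chr7:126625547-126625606, plus strand: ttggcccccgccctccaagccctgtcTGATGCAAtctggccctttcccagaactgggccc
Pycr1, chr11:120643818-120643877, minus strand: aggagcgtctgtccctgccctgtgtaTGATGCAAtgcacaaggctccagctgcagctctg
Asns, chr6:7693199-7693258, minus strand: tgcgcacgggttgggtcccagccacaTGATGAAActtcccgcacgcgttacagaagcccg
Trib3, chr2:152344013-152344072, plus strand: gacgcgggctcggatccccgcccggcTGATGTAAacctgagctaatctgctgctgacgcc
Atf3, chr1:191183410-191183469, plus strand: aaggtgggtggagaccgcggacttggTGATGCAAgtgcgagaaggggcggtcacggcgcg
Herpud1, chr8:94386291-94386350, minus strand: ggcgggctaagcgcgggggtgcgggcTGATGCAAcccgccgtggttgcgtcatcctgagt

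A whole window is given for the gene of each kind that the results turn on most. The promoter of Hspa5 (chr2:34771840-34772139, plus strand) carries its ER stress element, in capitals, 65 bases before the start.
Hspa5: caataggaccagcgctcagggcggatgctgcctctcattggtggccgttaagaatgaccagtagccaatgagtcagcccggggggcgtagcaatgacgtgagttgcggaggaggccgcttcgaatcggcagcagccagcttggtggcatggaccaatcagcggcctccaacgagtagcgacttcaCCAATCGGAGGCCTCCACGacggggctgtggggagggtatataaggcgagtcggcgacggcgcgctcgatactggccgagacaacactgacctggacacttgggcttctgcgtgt
The promoter of Chac1 (chr2:119350992-119351291, plus strand) carries the C/EBP-ATF element on the opposite strand, 193 bases before the start, so that the capitals read as its reverse complement.
Chac1: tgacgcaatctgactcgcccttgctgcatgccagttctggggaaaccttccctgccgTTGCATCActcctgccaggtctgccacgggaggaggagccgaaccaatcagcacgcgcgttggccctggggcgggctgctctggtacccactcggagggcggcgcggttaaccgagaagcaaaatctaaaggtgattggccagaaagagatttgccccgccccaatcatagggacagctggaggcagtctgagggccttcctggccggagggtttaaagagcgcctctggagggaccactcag

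**Figure D1:**
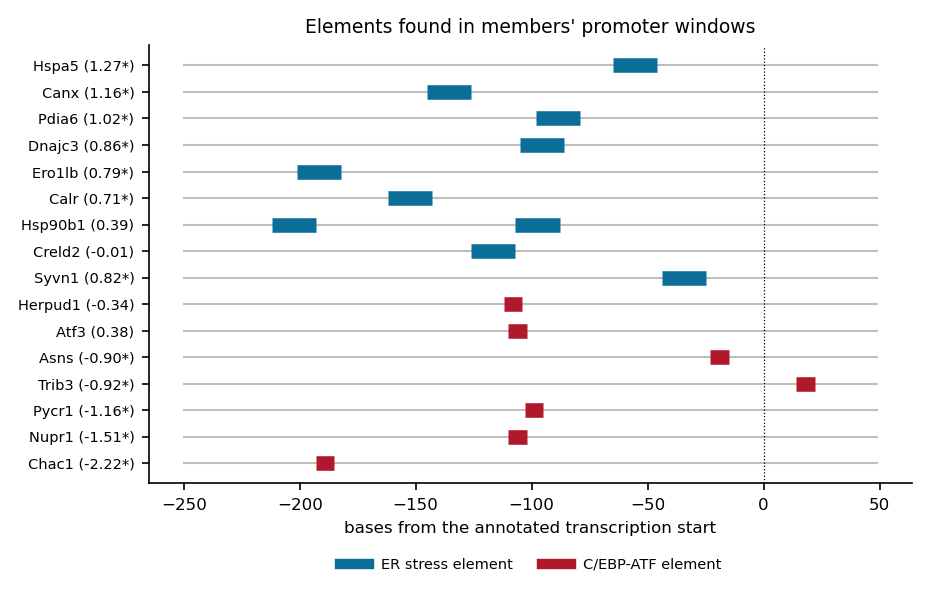
Positions of the ER stress element (blue) and of the C/EBP-ATF element (red) in the promoter windows of the 16 members that hold either, with the distance in bases from the annotated start on the horizontal axis and the log2 fold change (stem-labelled minus other) in brackets beside each gene, an asterisk where it was called. ER folding genes with an element stand at -0.01 to 1.27, and the 5 ATF4 targets with an element stand at -0.90 to -2.22.

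On the deposited scale the stem-labelled clones held more transcript of most ER folding genes and of 3 sensors, and less transcript of a group of ATF4 targets. The calls depended on the processing, as given below. With length and GC effects removed, Ern1 alone of the sensors and ER branch factors was called higher. With each library scaled to its own reads in genes, 1 ATF4 target was called lower. Hspa5, the chaperone BiP, was 2.41-fold higher in the stem-labelled clones, and P4hb, the protein disulfide isomerase, 2.76-fold higher. Ern1, which encodes IRE1, was 4.62-fold higher. Chac1, which breaks down glutathione, was 5.68-fold lower and Nupr1, a stress-induced transcription cofactor, 3.09-fold lower. The mRNA of Atf4 itself stood at 67.2 ± 4.54 RPKM in stem-labelled and 66.9 ± 11.2 RPKM in other clones (SD, n = 3 libraries each, as for all means below).

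Of the 41 genes, 16 were called higher (39.0%) and 6 lower (14.6%), and 19 did not pass. The test was limma on log2(RPKM + 1) over the 10097 genes with at least 1 RPKM in at least 3 libraries, and a gene was called at a Benjamini-Hochberg adjusted p under 0.05. Of all genes tested 29.9% were called higher and 25.4% lower, so the share of higher members stood above that of all genes and the share of lower members below it. The 3 libraries of one group lay wholly above those of the other for 19 members that were higher and 7 that were lower, against 35.7% and 27.8% of all genes tested. All 41 members passed the filter, but Ero1lb and Eif2ak3 did so only through the stem-labelled libraries, where they are high. Each change below is a difference of mean log2(RPKM + 1), stem-labelled minus other, with its SE. The median change was 0.39 over the members and 0.11 over all genes tested. When each library was instead scaled to its own reads in genes (rescaling, below), 30 members were called higher and 2 lower, but so were 58.7% and 12.3% of all genes. The median change was then 1.13 over the members and 0.86 over all genes.

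**Figure D2:**
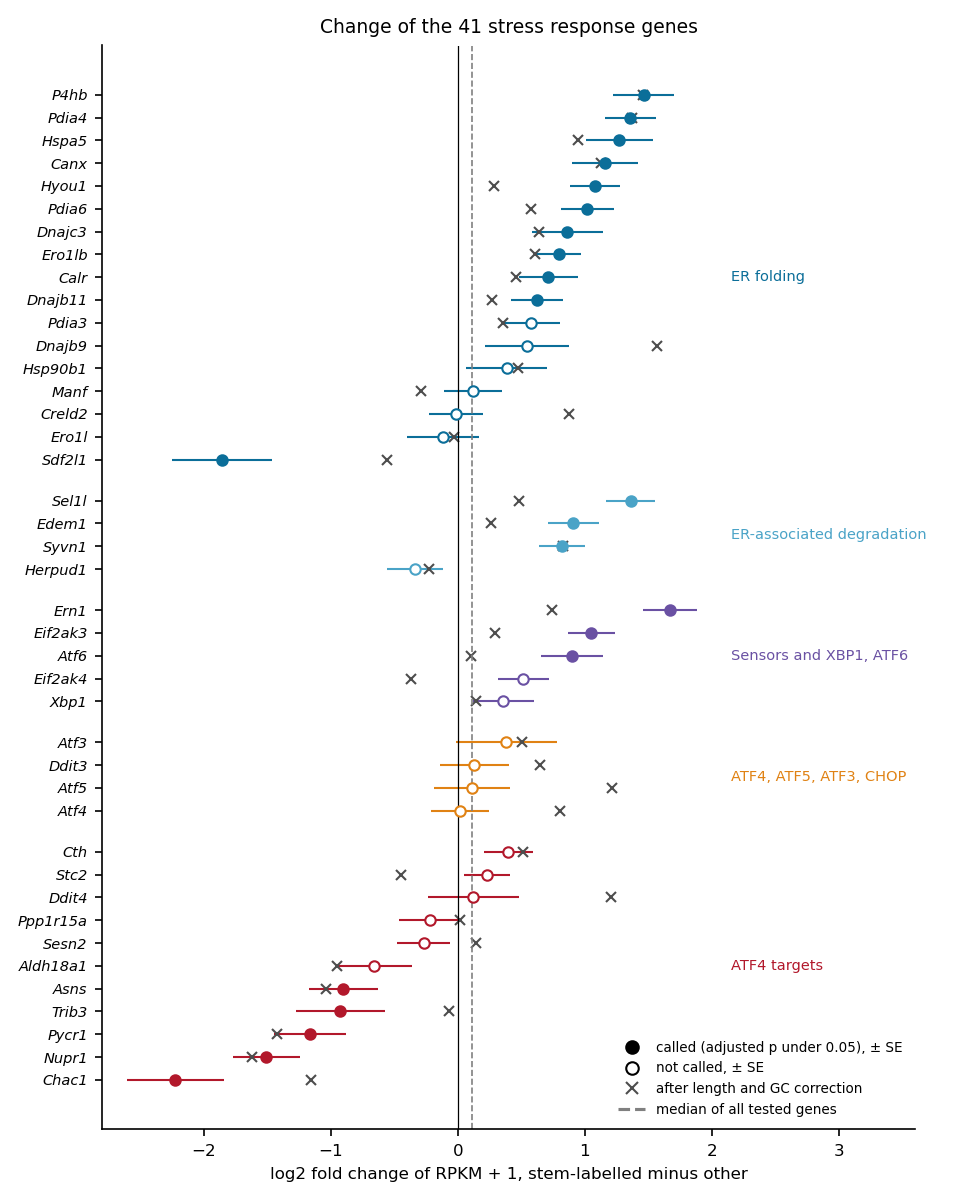
Log2 fold changes (stem-labelled minus other, horizontal axis) of the 41 genes by role, with SE bars, filled points for called genes, crosses for the change once length and GC effects are removed, and a dashed line at the median of all tested genes, 0.11. ER folding genes lie mostly to the right, with P4hb at 1.46 and Sdf2l1 alone far to the left at -1.86, and ATF4 targets lie mostly to the left, down to Chac1 at -2.22.

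Of the 5 sensors and ER branch factors, 3 rose and 2 did not pass, with a median change of 0.90. That was 60% called higher, against 29.9% of all genes tested. The 3 include Eif2ak3, which passed the filter only through the stem-labelled libraries, where it is high. Ern1 (ENSMUSG00000020715, chromosome 11, 106394650 to 106487852), the kinase and nuclease IRE1, had 5.61, 7.40 and 8.27 RPKM in the stem-labelled libraries, against 1.99, 1.34 and 1.28 RPKM in the other libraries. The groups lay far apart, and the change was 1.67 ± 0.21 (limma adjusted p = 0.000293), the largest increase among the members. Eif2ak3, which encodes PERK, had 1.93, 2.23 and 2.87 RPKM in stem-labelled libraries, against 0.724, 0.613 and 0.478 RPKM in the other libraries. It was low in both kinds of clone, resting on 1295 and 127 reads, and rose by 1.05 ± 0.18 (limma adjusted p = 0.00129). The gene model Gm43292 on the opposite strand covers 8.05% of its exon sequence. Whether counting used strand is not given in the sources used here, so reads of such pairs cannot be told apart, which also holds for Hsp90b1 (10.3% under 1810014B01Rik) and Manf (8.85% under 4930524O07Rik). Atf6, the membrane-bound factor, had 6.71, 5.82 and 8.94 RPKM in stem-labelled libraries, against 4.54, 3.33 and 2.36 RPKM in the other libraries. The groups did not overlap, and the change was 0.90 ± 0.24 (limma adjusted p = 0.0118).

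These 3 sensor genes are long, from 6026 to 9231 bases, and long genes as a whole stood higher in the stem-labelled libraries. In the length class of Ern1, from 6337 to 8322 bases, 51.3% of tested genes were called higher. With length and GC effects removed from each library by a smooth fit (the correction, below), Ern1 still rose by 0.74 (limma adjusted p = 0.0162), whereas Eif2ak3 and Atf6 did not pass, at 0.29 and 0.10 (limma adjusted p = 0.189 and 0.686).

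Xbp1, the factor activated by IRE1, had 25.2, 34.1 and 24.3 RPKM in stem-labelled libraries, against 20.9, 17.5 and 26.2 RPKM in the other libraries. Its groups overlapped and the change of 0.36 ± 0.24 did not pass (limma adjusted p = 0.224). The ratio of Ern1 to Xbp1 levels, which does not depend on how a library is scaled, was 0.223, 0.217 and 0.340 in stem-labelled libraries, against 0.0953, 0.0766 and 0.0486 in the other libraries. This ratio still carries effects of gene length, and after the correction Ern1 stood at 0.74 and Xbp1 at 0.14. Eif2ak4, which encodes the amino acid sensor GCN2, stood at 2.14 ± 0.499 RPKM in stem-labelled and 1.20 ± 0.314 RPKM in other clones. Its libraries did not overlap, but it missed the threshold (0.52 ± 0.20, limma adjusted p = 0.0509) and its change was -0.37 after the correction.

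Among the chaperones of the HSP70 and HSP90 systems, Hspa5, Hyou1, Dnajc3 and Dnajb11 rose, Sdf2l1 fell, and Hsp90b1 and Dnajb9 did not pass. Hspa5 (ENSMUSG00000026864, chromosome 2, 34771970 to 34777547), whose promoter is printed above, had 237, 271 and 291 RPKM in stem-labelled libraries, against 137, 99.8 and 94.8 RPKM in the other libraries. Its lowest stem-labelled library was well above its highest other library, and the change was 1.27 ± 0.26 (limma adjusted p = 0.00285, 0.94 after the correction). Hyou1, the HSP70-related chaperone that also exchanges nucleotides on BiP, had 17.1, 18.8 and 18.6 RPKM in stem-labelled libraries, against 8.05, 6.91 and 9.34 RPKM in the other libraries. It rose by 1.08 ± 0.20 (limma adjusted p = 0.00158), but it is 7230 bases long and did not pass after the correction (0.29). Hsp90b1, the ER form of HSP90 known as GRP94, had 25.8, 37.3 and 62.6 RPKM in stem-labelled libraries, against 31.8, 24.5 and 33.9 RPKM in the other libraries. The stem-labelled libraries spread over the range of the others, and the change of 0.39 ± 0.32 did not pass (limma adjusted p = 0.324) although its promoter window holds 2 ER stress elements.

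The BiP cochaperones were mixed. Dnajc3, known as p58IPK, had 5.54, 6.43 and 9.68 RPKM in stem-labelled libraries, against 5.37, 2.79 and 2.58 RPKM in the other libraries, and the lowest stem-labelled value nearly met the highest other value. It rose by 0.86 ± 0.28 (limma adjusted p = 0.0262) and lost the call when any of 4 of the 6 libraries was left out. Dnajb11, known as ERdj3, had 20.8, 19.8 and 17.4 RPKM in stem-labelled libraries, against 13.1, 10.1 and 13.4 RPKM in the other libraries, a change of 0.63 ± 0.20 (limma adjusted p = 0.0262). It did not pass after the correction (0.27). Dnajb9, known as ERdj4 and a classic target of spliced XBP1, stood at 5.17 ± 1.71 RPKM in stem-labelled and 3.37 ± 1.87 RPKM in other clones. Its libraries overlapped and it did not pass (0.54 ± 0.33, limma adjusted p = 0.190), but at 1865 bases it is a short gene and the correction put it at 1.57 (limma adjusted p = 0.00168).

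Sdf2l1, which works with ERdj3 in the lumen of the ER, was the 1 folding gene that fell. It had 29.3, 25.0 and 18.7 RPKM in stem-labelled libraries, against 168, 80.6 and 52.8 RPKM in the other libraries. All other-clone libraries were above all stem-labelled ones, with replicate 1 far above the rest, and the change was -1.86 ± 0.39 (limma adjusted p = 0.00328). It is also the shortest member, at 1108 bases. In its length class, from 1076 to 1789 bases, 48.5% of tested genes were called lower, and after the correction Sdf2l1 stood at -0.56 and did not pass (limma adjusted p = 0.253).

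Of the disulfide isomerases, P4hb, Pdia4 and Pdia6 rose and Pdia3 missed the threshold. P4hb (ENSMUSG00000025130, chromosome 11, 120560298 to 120573253) had 239, 238 and 224 RPKM in stem-labelled libraries, against 81.0, 98.9 and 74.0 RPKM in the other libraries. These values were tight within each group, and the change of 1.46 ± 0.24 (limma adjusted p = 0.000923) was the same, 1.46, after the correction. Pdia4 had 32.8, 33.2 and 36.5 RPKM in stem-labelled libraries, against 11.9, 11.7 and 14.8 RPKM in the other libraries, a change of 1.36 ± 0.20 (limma adjusted p = 0.000561) that was 1.37 after the correction. Both genes are of moderate length, 2861 and 2399 bases, in classes where fewer genes were called higher than lower. Pdia6 had 63.5, 73.4 and 60.5 RPKM in stem-labelled libraries, against 30.4, 32.9 and 32.2 RPKM in the other libraries, with no overlap and a change of 1.02 ± 0.21 (limma adjusted p = 0.00275). Pdia3, the isomerase that serves glycoproteins bound to calnexin and calreticulin, stood at 97.0 ± 13.1 RPKM in stem-labelled and 64.5 ± 6.52 RPKM in other clones. Its libraries did not overlap, and it missed the threshold (0.58 ± 0.23, limma adjusted p = 0.0568).

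The lectin chaperones of that cycle both rose. Canx, the membrane-bound calnexin, had 54.0, 49.2 and 86.1 RPKM in stem-labelled libraries, against 30.4, 25.0 and 25.5 RPKM in the other libraries. Replicate 3 stood highest among the stem-labelled libraries, and the change was 1.16 ± 0.26 (limma adjusted p = 0.00462, 1.13 after the correction). Calr, the soluble calreticulin, had 166, 186 and 193 RPKM in stem-labelled libraries, against 106, 104 and 121 RPKM in the other libraries. The groups did not overlap and the change was 0.71 ± 0.23 (limma adjusted p = 0.0263), but the call was lost when any of 5 of the 6 libraries was left out and after the correction (0.46, limma adjusted p = 0.0870).

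The 2 oxidases that pass electrons from the isomerases to oxygen differed from each other. Ero1lb, the second ER oxidase, had 1.16, 1.35 and 1.72 RPKM in stem-labelled libraries, against 0.337, 0.550 and 0.281 RPKM in the other libraries. It was low throughout, with 549 and 58 reads, and rose by 0.79 ± 0.18 (limma adjusted p = 0.00470), while 13.9% of its transcript's 50-base stretches also occur in another annotated gene. Ero1l stood at 10.7 ± 4.45 RPKM in stem-labelled and 11.3 ± 2.40 RPKM in other clones, with overlapping libraries and a change of -0.12 ± 0.28 that did not pass. Creld2 and Manf, small secreted ER proteins induced by ER stress, did not pass either. Creld2 stood at 19.7 ± 2.23 RPKM in stem-labelled and 20.0 ± 2.88 RPKM in other clones, and Manf at 28.5 ± 4.56 RPKM in stem-labelled and 26.1 ± 4.07 RPKM in other clones. After the correction Creld2, a gene of 1364 bases, was called higher (0.88, limma adjusted p = 0.00395) and Manf was not (-0.29).

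In all, 10 of the 17 ER folding genes rose (58.8%), 1 fell and 6 did not pass, with a median change of 0.71. The 10 include Ero1lb, which passed the filter only through the stem-labelled libraries, where it is high. Of all genes tested of 3011 to 3634 bases, the length class that holds the median ER folding gene (3524 bases), 28.3% were called higher. After the correction 9 of the 17 were called higher (52.9%) and 0 lower, with a median of 0.58 against 0.07 for all genes. Over all genes the correction left 25.8% called higher and 22.0% lower. By limma-voom on the reads behind the values, 8 were called higher and 1 lower, against 2600 and 2872 of all 10097 genes. Of the 8 with an ER stress element 6 rose, Ero1lb among them. Of the 7 that had a window without one 3 rose and 1 fell. The median changes of these subsets were 0.83 and 0.58, and their median lengths 4131 and 2861 bases, and the difference was not tested.

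**Figure D3:**
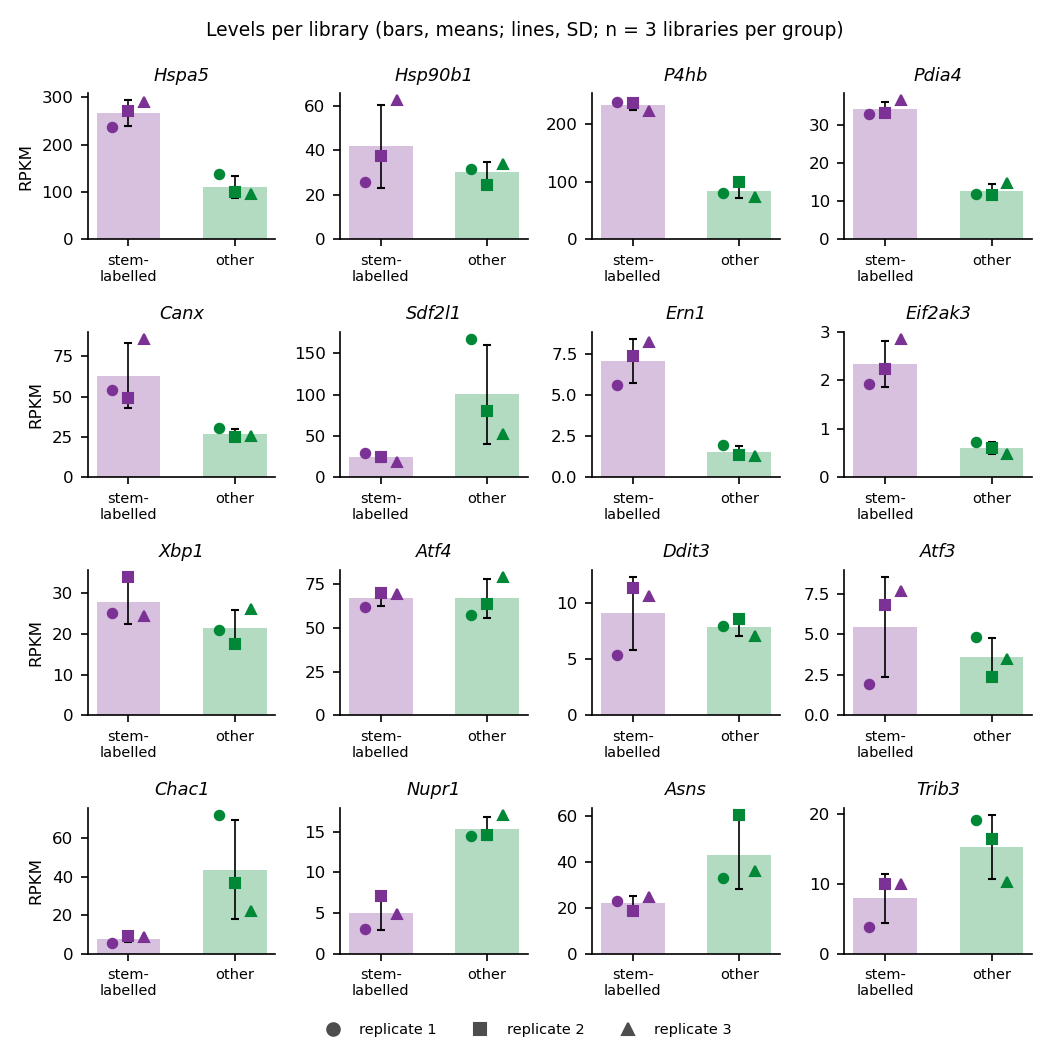
Levels in RPKM (vertical axes, from 0) of 16 members in each library, stem-labelled on the left and other on the right of each panel, with bars for means, lines for SD (n = 3 libraries per group) and a marker shape per replicate. Hspa5, P4hb, Pdia4, Canx, Ern1 and Eif2ak3 are higher in every stem-labelled library, Sdf2l1, Chac1, Nupr1, Asns and Trib3 are lower, and the groups overlap for Hsp90b1, Xbp1, Atf4, Ddit3 and Atf3.

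Of the 4 genes of ER-associated degradation, which returns misfolded proteins to the cytosol for destruction, 3 rose and 1 did not pass. Over all genes tested 29.9% were called higher and 25.4% lower. Sel1l, the scaffold of the HRD1 ubiquitin ligase, had 6.55, 6.30 and 8.36 RPKM in stem-labelled libraries, against 2.38, 1.90 and 2.10 RPKM in the other libraries. It was higher in every stem-labelled library, by 1.36 ± 0.19 (limma adjusted p = 0.000454, 0.49 after the correction). Syvn1, the ligase HRD1 itself, had 9.73, 10.3 and 10.3 RPKM in stem-labelled libraries, against 5.20, 4.95 and 5.72 RPKM in the other libraries. It rose by 0.82 ± 0.18 (limma adjusted p = 0.00417) and by 0.83 after the correction. Edem1, which extracts glycoproteins from the folding cycle, had 7.06, 5.33 and 8.14 RPKM in stem-labelled libraries, against 2.95, 3.34 and 3.09 RPKM in the other libraries. It rose by 0.91 ± 0.20 (limma adjusted p = 0.00435) and did not pass after the correction (0.26). Herpud1, a stress-induced partner of HRD1 whose promoter holds the C/EBP-ATF element, stood at 20.8 ± 2.94 RPKM in stem-labelled and 26.6 ± 4.71 RPKM in other clones. Its libraries did not overlap, with the stem-labelled ones lower, but the change of -0.34 ± 0.22 did not pass (limma adjusted p = 0.224).

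None of the 4 transcription factors of the integrated stress response passed, at changes of 0.02 to 0.38. Atf4 (ENSMUSG00000042406, chromosome 15, 80255184 to 80257540) had 62.0, 70.2 and 69.5 RPKM in stem-labelled libraries, against 57.5, 63.9 and 79.3 RPKM in the other libraries. The stem-labelled libraries lay within the range of the others, and the change was 0.02 ± 0.23 (limma adjusted p = 0.953). Ddit3, the death-promoting factor CHOP, had 5.39, 11.4 and 10.7 RPKM in stem-labelled libraries, against 8.03, 8.63 and 7.07 RPKM in the other libraries. The stem-labelled libraries lay on both sides of the others, with replicate 1 low, and the change of 0.13 ± 0.27 did not pass (limma adjusted p = 0.700). Atf3, which feeds back on this response, showed the same low replicate 1, with 1.91 RPKM against 6.81 and 7.64 RPKM in replicates 2 and 3 of the stem-labelled clones. Its level in the other libraries was 4.83, 2.39 and 3.50 RPKM. Atf5, a factor related to ATF4, stood at 33.1 ± 6.32 RPKM in stem-labelled and 31.6 ± 10.9 RPKM in other clones.

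The change of these factors depended on the scale. Atf4, Atf5 and Ddit3 are between 1713 and 1993 bases long, in length classes whose median gene was lower in the stem-labelled clones. After the correction Atf4 and Atf5 were called higher (0.80 and 1.21, limma adjusted p = 0.0143 and 0.01), as were 25.8% of all genes. On rescaling all 4 factors were called higher (0.95 to 1.13), as were 58.7% of all genes, with the median of all genes at 0.86. Against that median their changes were 0.09 to 0.27.

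Of the 11 ATF4 targets, 5 fell (45.5%), 0 rose and 6 did not pass, against 25.4% lower and 29.9% higher of all genes tested. Their median change was -0.66, or -0.36 without replicate 2 of the other clones. Chac1 (ENSMUSG00000027313, chromosome 2, 119351229 to 119354381) had 5.64, 9.08 and 8.33 RPKM in stem-labelled libraries, against 72.1, 36.6 and 22.2 RPKM in the other libraries. The libraries of the other clones varied more than 3-fold among themselves, yet the lowest of them stood well above every stem-labelled library, and the change was -2.22 ± 0.38 (limma adjusted p = 0.00119). After the correction it was -1.16 (limma adjusted p = 0.0381). Nupr1 (ENSMUSG00000030717, chromosome 7, 126623249 to 126630861) had 2.99, 7.08 and 4.88 RPKM in stem-labelled libraries, against 14.5, 14.6 and 17.1 RPKM in the other libraries. The groups were well apart, and the change was -1.51 ± 0.27 (limma adjusted p = 0.00136) and -1.62 after the correction. Trib3, a pseudokinase that restrains ATF4, had 3.88, 9.93 and 9.97 RPKM in stem-labelled libraries, against 19.3, 16.5 and 10.3 RPKM in the other libraries. The closest libraries of the groups nearly met, the call was marginal (-0.92 ± 0.35, limma adjusted p = 0.0485), and it did not pass after the correction (-0.07, limma adjusted p = 0.894).

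Of the 4 enzymes of amino acid synthesis among the targets, Asns and Pycr1 fell, and Aldh18a1 and Cth did not pass. Asns, the asparagine synthetase, had 22.7, 18.4 and 24.6 RPKM in stem-labelled libraries, against 32.8, 60.4 and 35.9 RPKM in the other libraries. The groups did not overlap, and the change was -0.90 ± 0.27 (limma adjusted p = 0.0188) and -1.03 after the correction. Pycr1, the mitochondrial enzyme that completes proline synthesis, had 1.89, 1.69 and 1.35 RPKM in stem-labelled libraries, against 5.01, 7.72 and 2.93 RPKM in the other libraries. It was lower in every stem-labelled library, by -1.16 ± 0.28 (limma adjusted p = 0.00663) and -1.42 after the correction. Aldh18a1, which makes the precursor that PYCR1 needs, stood at 14.2 ± 2.36 RPKM in stem-labelled and 24.3 ± 10.3 RPKM in other clones. Replicate 1 of the other clones lay inside the stem-labelled range, and the change of -0.66 ± 0.30 did not pass (limma adjusted p = 0.0847), although it did after the correction (-0.95, limma adjusted p = 0.0106). In Asns, Pycr1 and Aldh18a1 alike, the highest library was replicate 2 of the other clones, whereas Chac1 and Trib3 were highest in replicate 1 of those clones. Cth, the last enzyme of the path from methionine to cysteine, went the other way, at 2.44 ± 0.354 RPKM in stem-labelled and 1.62 ± 0.383 RPKM in other clones, without passing (0.40 ± 0.19, limma adjusted p = 0.107).

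The remaining 4 targets did not pass. Ddit4, an inhibitor of mTORC1 known as REDD1, had 49.5, 142 and 86.7 RPKM in stem-labelled libraries, against 78.5, 70.8 and 85.2 RPKM in the other libraries, so that the stem-labelled libraries alone spanned more than the other group. Ppp1r15a, which directs dephosphorylation of eIF2 and is known as GADD34, stood at 4.44 ± 1.58 RPKM in stem-labelled and 5.18 ± 0.666 RPKM in other clones. Sesn2, a leucine-binding inhibitor of mTORC1, stood at 1.80 ± 0.628 RPKM in stem-labelled and 2.31 ± 0.153 RPKM in other clones. In all 3 of these genes, as in Chac1, Nupr1, Trib3, Atf3, Atf4, Atf5 and Ddit3, replicate 1 was the lowest of the stem-labelled libraries. This was not particular to them, as it was also the lowest for Hspa5, Hsp90b1, Calr, Ern1 and Eif2ak3, among others. For the targets Cth, Aldh18a1, Pycr1 and Stc2 replicate 1 was the highest of the stem-labelled libraries. Stc2, a secreted glycoprotein, stood at 1.80 ± 0.0838 RPKM in stem-labelled and 1.41 ± 0.339 RPKM in other clones.

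The 5 ATF4 targets that fell, Chac1, Nupr1, Pycr1, Asns and Trib3, were on the deposited scale the same 5 whose promoter window holds the C/EBP-ATF element. The 5 targets that had a window without it, Aldh18a1, Ddit4, Ppp1r15a, Sesn2 and Stc2, did not pass. The match was broken after the correction, where Trib3, which holds the element, was not called (-0.07) and Aldh18a1, which lacks it, was called lower (-0.95), as it also was by limma-voom (-0.84, adjusted p = 0.0334). The median changes were -1.16 with the element and -0.22 without it, or -1.16 and 0.02 after the correction, and the difference was not tested. Outside the 41 genes the element did not go with lower levels. Of 168 tested genes matched by symbol to a window that holds it, 31.5% were called higher and 18.5% lower, against 29.9% and 25.4% of all genes tested. Herpud1 and Atf3, the other members with the element, did not pass.

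The contrast between ER folding genes and ATF4 targets was large beside the spread between libraries. Summed over the 17 folding genes, the level was 1039, 1122 and 1192 RPKM in stem-labelled libraries, against 757, 609 and 605 RPKM in the other libraries, with no overlap. Summed over the 11 ATF4 targets it was 112, 214 and 159 RPKM in stem-labelled libraries, against 249, 252 and 206 RPKM in the other libraries, where replicate 2 of the stem-labelled clones, raised by Ddit4, overlapped the other group. The ratio of these sums within a library does not depend on its scaling, and was 9.25, 5.25 and 7.50 in stem-labelled libraries, against 3.05, 2.42 and 2.94 in the other libraries. Every stem-labelled library was above every other library in this ratio. As the sums are set by a few abundant genes, the mean of log2(RPKM + 1) over each list was also taken. The folding genes exceeded the ATF4 targets by 2.11 ± 0.173 in stem-labelled and 0.871 ± 0.217 in other clones on that log2 scale, or by 2.01 ± 0.168 and 0.971 ± 0.126 after the correction. The members were chosen with earlier results of these data known, so no p is given for these lists. The medians of the changes, 0.71 and -0.66, differed by 1.38, or by 1.03 after the correction.

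**Figure D4:**
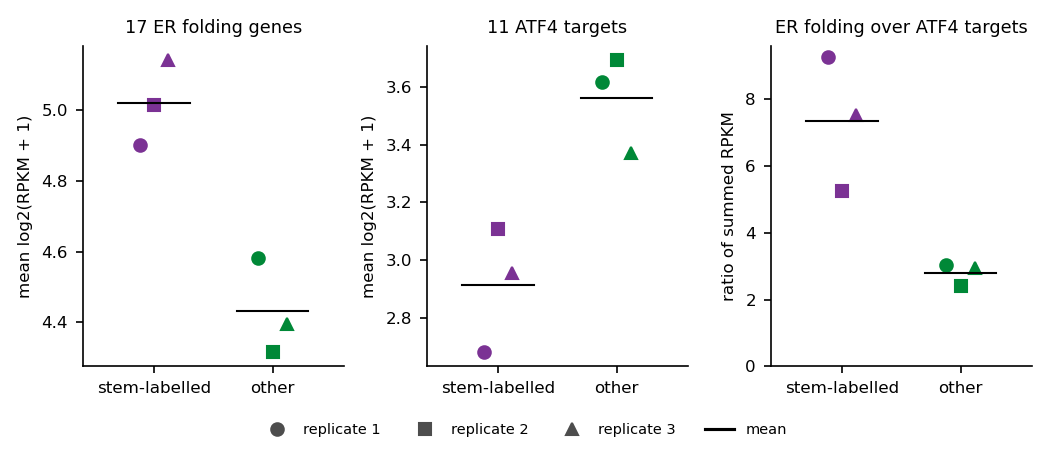
Mean log2(RPKM + 1) over the 17 ER folding genes (left) and the 11 ATF4 targets (middle), and the ratio of their summed RPKM (right, from 0), in each library, stem-labelled left of other, with a horizontal line at the group mean. The folding genes are higher and the ATF4 targets lower in every stem-labelled library, and the ratio runs from 5.25 to 9.25 in stem-labelled against 2.42 to 3.05 in other libraries.

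Ratios to Atf4 were also taken for Hspa5, Chac1 and Asns, whose own libraries did not overlap between the groups. The level of Hspa5 over that of Atf4 was 3.82, 3.86 and 4.19 in stem-labelled libraries, against 2.39, 1.56 and 1.19 in the other libraries. Chac1 over Atf4 was 0.0910, 0.129 and 0.120 in stem-labelled libraries, against 1.25, 0.573 and 0.280 in the other libraries. Asns over Atf4 was 0.366, 0.262 and 0.354 in stem-labelled libraries, against 0.570, 0.946 and 0.453 in the other libraries. None of these 3 ratios overlapped between the groups. As the mean level of Atf4 was similar in both groups, this largely follows from the levels already given and is not a separate result. The ratios do not depend on scaling but still carry effects of gene length, and Hspa5 has 4229 bases and Atf4 1724. After the correction the changes of Hspa5 and Atf4 were close, at 0.94 and 0.80, so that this separation was mostly lost. Chac1 and Asns stayed below Atf4, at -1.16 and -1.03. With 3 libraries in each group an exact permutation test could not reach a two-sided p below 0.1, and none was run.

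Gene length moved with the changes of all genes and therefore bears on each list. The median change of all tested genes was -1.17 among genes of up to 1075 bases and 0.72 among those of 8323 bases or more. The ER folding genes had a median length of 3524 bases and the ATF4 targets of 2791 bases, against 3634 bases for all genes tested. Of all genes of 2426 to 3010 bases, the class of the median ATF4 target, 29.5% were called lower, against 45.5% of the ATF4 targets. After the correction 5 ATF4 targets were called lower and 1, Ddit4, higher (1.20, limma adjusted p = 0.0204), with a median of -0.45. These were 45.5% lower and 9.09% higher, against 22.0% and 25.8% of all genes. On rescaling 1 target, Chac1, was called lower (-1.35) and 3 higher, against 12.3% lower and 58.7% higher of all genes. The targets' median was then 0.23, which lay 0.63 below the median of all genes, while the folding genes' median lay 0.65 above it.

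**Figure D5:**
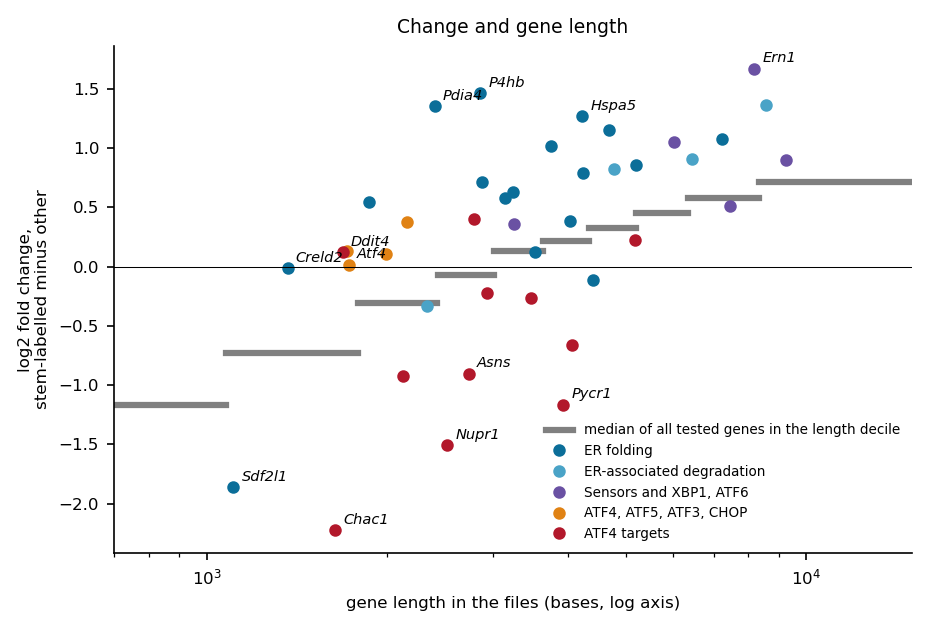
Log2 fold change (stem-labelled minus other, vertical axis) against gene length in bases (horizontal log axis) for the 41 genes, coloured by role, with grey bars for the median of all tested genes in each of 10 length classes. The grey bars climb from -1.17 to 0.72, most ER folding genes lie above the bar of their length, and Chac1, Nupr1, Asns and Pycr1 lie well below it.

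Other genes of the pathways, from lists written with earlier results in view, were examined in the same fit. Of 20 further ER folding and glycoprotein genes with a test, 8 rose and 3 fell, while 9 did not pass (median 0.46), or 40% higher and 15% lower against 29.9% and 25.4% of all genes. Dnajc1, counted as higher, passed the filter only through the stem-labelled libraries, where it is high (1.75 ± 0.508 RPKM, against 0.505 ± 0.138 RPKM in other clones). By limma-voom, and without replicate 2 of the stem-labelled or replicate 3 of the other clones, 5 of the 20 were called higher. Ganab, the glucosidase II that trims glycoproteins for calnexin, stood at 76.9 ± 9.35 RPKM in stem-labelled and 20.9 ± 3.59 RPKM in other clones (1.84 ± 0.22, 1.36 after the correction). Uggt1, the folding sensor that glucosylates them again, rose by 1.43 ± 0.22 (0.37 after the correction), and Txndc12, an ER thioredoxin, by 0.89 ± 0.19. The prolyl isomerase genes Fkbp2, Fkbp7 and Ppib were lower, by -1.63, -1.38 and -0.83, and did not pass after the correction (0.25, -0.33 and -0.08). Of 16 further degradation genes 8 rose, 1 fell and 7 did not pass (median 0.68), or 50% higher and 6.25% lower. Os9, a lectin that delivers glycoproteins to HRD1, stood at 29.0 ± 7.25 RPKM in stem-labelled and 8.09 ± 1.77 RPKM in other clones (1.71 ± 0.24, 1.83 after the correction). Faf2, which recruits p97, rose by 0.95 ± 0.19 (0.29 after the correction), and the ubiquitin-conjugating enzyme gene Ube2g2 fell to 30.5 ± 6.75 RPKM, against 80.0 ± 14.2 RPKM in other clones.

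Genes of the channel that admits proteins to the ER went both ways. Of 16 translocon and signal recognition genes 2 rose, 6 fell and 8 did not pass (median -0.10), or 12.5% higher and 37.5% lower. No gene of this list was called higher without replicate 1 or 2 of the stem-labelled clones or replicate 1 of the other clones, 1 was without replicate 3 of either, and 3 were called lower without replicate 3 of the stem-labelled clones. Sec61a1, the pore of the channel, stood at 19.8 ± 1.69 RPKM in stem-labelled and 12.3 ± 1.85 RPKM in other clones (0.65 ± 0.20), and Srprb, a subunit of the signal recognition particle receptor, rose by 0.58 ± 0.21. Neither passed after the correction (0.07 and 0.03). Sec61g, the small gamma subunit, stood at 26.4 ± 5.92 RPKM in stem-labelled and 564 ± 363 RPKM in other clones (-4.07 ± 0.56, -3.86 after the correction). Ssr4 and Ssr2 of the translocon-associated complex were lower by -2.52 ± 0.32 and -0.92 ± 0.26 (-2.81 and -0.20 after the correction). Sec61a1 and Sec61g, which sit in the same channel, thus went opposite ways on the deposited scale.

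Of 19 further sensor, eIF2 and cell death genes 5 rose, 8 fell and 6 did not pass (median -0.41), or 26.3% higher and 42.1% lower. The count of lower genes was fragile, at 4, 3 and 2 without replicate 1, 2 or 3 of the stem-labelled clones, 5 without replicate 3 of the other clones, 4 after the correction and 1 on rescaling. Map3k5, the kinase ASK1 that acts downstream of IRE1, stood at 10.7 ± 2.57 RPKM in stem-labelled and 1.48 ± 0.295 RPKM in other clones (2.23 ± 0.22, 1.43 after the correction). Ppp1r15b, the constitutive counterpart of Ppp1r15a, rose by 1.71 ± 0.20, and Mbtps1, the protease that cuts ATF6, by 1.47 ± 0.21 (1.01 and 0.90 after the correction). Bax and Bak1, which permeabilize mitochondria, were lower by -3.05 ± 0.35 and -1.23 ± 0.24 (-1.28 and -0.62 after the correction), and Eif2b4, a subunit of the exchange factor for eIF2, by -0.84 ± 0.24 (-0.34 after the correction).

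Of 19 further partners and targets of ATF4 or CHOP 5 rose and 4 fell, while 10 did not pass (median -0.01). These shares, 26.3% higher and 21.1% lower, were close to those of all genes, and without replicate 2 of the stem-labelled clones 2 were called lower. The genes that fell were Shmt2, Phgdh, Psph and Mthfd2. Psat1, which acts between PHGDH and PSPH in serine synthesis, stood at 50.6 ± 12.02 RPKM in stem-labelled and 51.6 ± 14.4 RPKM in other clones and did not pass (-0.02 ± 0.28). Shmt2, the mitochondrial serine hydroxymethyltransferase, stood at 87.5 ± 21.6 RPKM in stem-labelled and 438 ± 26.0 RPKM in other clones (-2.34 ± 0.27, -1.65 after the correction). Phgdh, the first enzyme of serine synthesis, stood at 143 ± 28.1 RPKM in stem-labelled and 531 ± 139 RPKM in other clones (-1.88 ± 0.30, -1.29 after the correction). Mthfd2, a mitochondrial folate enzyme, was lower by -0.81 ± 0.22 (-1.22 after the correction). The genes that rose included Bcl2l11, which encodes the death-promoting BIM (1.51 ± 0.21), and the amino acid transporter genes Slc38a2 and Slc7a1 (1.27 ± 0.25 and 0.99 ± 0.24). After the correction these stood at 0.64, 0.96 and -0.04. Of 12 tRNA synthetase genes and the tRNA exporter Xpot, known to follow ATF4, only Xpot rose (1.35 ± 0.21, 0.72 after the correction) and 0 fell (median 0.19). This was 7.69% higher and 0% lower, against 29.9% and 25.4% of all genes. After the correction 4 of the 13 were called lower (30.8%), against 22.0% of all genes. For the named genes of these lists that were called, the limma adjusted p on the deposited scale ran from 0.000131 to 0.0378.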

How the data were processed

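RNA-seq of 6 libraries of 4T1 clones was analysed, 3 stem-labelled and 3 other, grouped by the tissue label. The authors deposited 1 table per library with RPKM values and gene lengths; the unit follows from the values, since RPKM times length gave whole reads for every gene (tolerance 0.01). Bowtie2 2.0.6, TopHat2 2.0.9 and mm9 are named in the submitters' processing notes, and the counting program is not given in the sources used here. Gene coordinates and lengths are those in the deposited tables. Their positions follow GRCm38 and not mm9, as 80.5% of genes had the same start and end as in GENCODE M21 on GRCm38 and 99.4% lay within 50 kb, and 25 symbols were restored by gene ID. A single read in 1 kb was worth 0.0311 to 0.0993 RPKM, which limits the precision of low genes and covers counting error only.

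The members and gene lists were chosen with earlier results of these data known. The test was limma 3.58.1 (R 4.3.3) with a variance trend on log2(RPKM + 1), over the 10097 genes with at least 1 RPKM in at least 3 libraries (9082 were left out), with Benjamini-Hochberg adjustment over all of them. It was tested on simulated reads with few changed genes, no length trend and no scaling shift between the groups. How it behaves where these are present was not tested. The correction took from each library a spline in log gene length and GC content with 5 degrees of freedom each, on the 99.9% of tested genes that had a GC value. Rescaling set each library to its reads summed over genes. Alternatives were upper-quartile scaling, other filters, a replicate block, each library left out, a pseudocount of 0.1, no variance trend, and limma-voom on the recovered reads. Values by library are given for called members and 8 preset genes, and of each further list up to 3 called genes in each direction with the smallest adjusted p, of which 1 is not reported here. Atf3, Ddit4, Dnajc1, Psat1 and Psph go beyond that rule and were chosen after their values were seen. Promoter sequences are RefSeq's, on GRCm38.p6.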

Additional observations from a re-analysis of the deposited data

How the results depend on the processing

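Over all genes, 3014 were called higher and 2563 lower, and these became 5926 and 1245 on rescaling to summed reads, where the median of all genes was 0.86, and 1405 higher with a mean of at least 5 RPKM required, where fewer genes were tested. Of the 41 members, 16 higher and 6 lower became 30 and 2 on rescaling, and the 5 lower ATF4 targets became 3 under upper-quartile scaling and 1 on rescaling, with their median change turned to 0.23; the cause was not tested. The difference of 1.38 between the list medians was 1.03 with the length and GC correction, with or without the replicate block, and 1.63 with the 5 RPKM minimum. Leaving out 1 library at a time gave 13 to 17 members higher and 5 to 6 lower, 7 to 10 folding genes higher, 4 to 5 ATF4 targets lower medians of 0.67 to 0.80 and -0.75 to -0.36 for these lists and a difference of 1.03 to 1.52, against 2539 to 3027 genes higher and 2184 to 2528 lower over all. The call was lost without 5 of the 6 libraries in turn for Calr, 4 for Dnajc3 and Trib3, 3 for Dnajb11 and 1 for Asns, and the other 17 called members kept it in all 6. The only called member whose direction turned in any alternative was Asns (0.0092 on rescaling). Uncalled members turned as follows. On rescaling, Creld2 stood at 0.88, Ero1l at 0.74, Herpud1 at 0.57, Ppp1r15a at 0.56, Sesn2 at 0.36 and Aldh18a1 at 0.23. Under upper-quartile scaling, Creld2 stood at 0.23 and Ero1l at 0.12. With the correction, with or without the block, Creld2 stood at 0.88 and was called higher, Manf stood at -0.29, Eif2ak4 at -0.37, Ppp1r15a at 0.019, Sesn2 at 0.14 and Stc2 at -0.45. By limma-voom, Manf stood at -0.014, Atf4 at -0.12, Atf5 at -0.038, Ddit3 at -0.0064 and Ddit4 at -0.024. With 1 library left out, Creld2 ranged from -0.12 to 0.081, Ero1l from -0.41 to 0.076, Atf4 from -0.083 to 0.14, Atf5 from -0.20 to 0.31, Ddit3 from -0.042 to 0.43 and Ddit4 from -0.25 to 0.51. Same-numbered libraries did not deviate together (correlations of -0.125, 0.0255 and -0.0848), so the numbers were not taken as pairs. With a replicate block 14 members were called higher and 5 lower, and Dnajb11, Calr and Trib3 lost their calls (limma adjusted p = 0.0553, 0.0664 and 0.0568). With the correction alone 8 called members did not pass (Dnajb11, Sdf2l1, Calr, Hyou1, Edem1, Atf6, Eif2ak3 and Trib3), and with the correction and the block together 12 did not, Chac1 among them (limma adjusted p = 0.0631). Depth limits Ero1lb and Eif2ak3 most, which had 58 and 127 reads in all in the other clones.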
